A study of Mus musculus with 120 samples.

Results

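The comparison set the dorsal lateral geniculate nucleus (LGd), the first-order thalamic relay of vision, against the ventrobasal complex (VB), the first-order relay of touch, in adult mouse projection neurons. Its members are 9 of the 120 libraries of the series, chosen by their titles: 5 libraries of LGd neurons labelled with DiI from primary visual cortex, and 4 libraries of VB neurons labelled with DiI from barrel cortex. DiI is a lipophilic dye that axon endings take up and that travels back to the cell body. All 9 libraries came from wildtype males. The labels of LGd also record CTB (cholera toxin B) label from the eyes. The LGd libraries held 46 to 65 hand-picked cells each, from 9 animals, with 2 animals pooled in 4 libraries, aged 64 to 136 in a unit the files do not give. The VB libraries held 14 to 61 cells each, from 7 animals, with 2 animals pooled in 3 libraries, aged 69 to 100 in the same unit. No animal contributed to both groups. Higher-order nuclei labelled with DiI from the same cortical areas, also in wildtype males, served to show where the pair differs from them: LP (lateral posterior, from visual cortex, 9 libraries of 9 animals aged 64 to 135, also with CTB label from the eyes) and PO (posterior, from barrel cortex, 7 libraries of 8 animals aged 69 to 100). LGd and LP shared 6 animals, and VB and PO shared 6. All 5 LGd libraries were amplified on 1 date and all 4 VB libraries on another, so the nucleus and the amplification date cannot be told apart within the pair. The date of LGd was shared by 7 LP libraries and that of VB by 3 PO libraries.

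First-order relays carry signals from the sense organs to layer 4 of primary sensory cortex: LGd neurons are driven by retinal ganglion cell axons and VB neurons by axons of the trigeminal and dorsal column nuclei. Higher-order nuclei such as LP and PO take their driving input largely from layer 5 of cortex. Relay neurons of every sensory modality release glutamate, fire in tonic and burst modes, and share a set of thalamic transcription factors, while adhesion molecules and ephrin receptors take part in the topographic maps that connect each nucleus with its cortical area.

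Total counts in the 9 libraries were 8740008 to 16856173, with 12565 to 13788 genes detected per LGd library and 12041 to 13419 per VB library. The libraries were checked against the relay markers first. Slc17a6, the vesicular glutamate transporter of subcortical neurons, averaged 1052 ± 124 CPM (counts scaled for library size with TMM) in LGd and 996 ± 169 CPM in VB. Tcf7l2, a transcription factor of thalamic neurons, averaged 1476 ± 98.4 CPM in LGd and 1304 ± 245 CPM in VB. Rora, a nuclear receptor of sensory relay neurons, averaged 3589 ± 658 CPM in LGd and 3999 ± 1962 CPM in VB (SD, n = 5 and 4 here and below). The 17 relay markers together summed to 14109 to 16883 CPM in LGd libraries and 13048 to 20618 CPM in VB libraries. The same sum was 10349 to 14389 CPM in LP and 12128 to 16365 CPM in PO. The markers thus fitted thalamic relay neurons but do not tell these nuclei apart. Inhibitory and reticular nucleus markers (5 of 17 measured) summed to 0 to 0.892 CPM in LGd libraries and 5.02 to 18.8 CPM in VB libraries, with Sst and Otx2 at no read. Oligodendrocyte markers (11 of 15 measured) summed to 13.0 to 192 CPM in LGd, against 75.6, 226, 785 and 2130 CPM in the 4 VB libraries, with none called by edgeR, 5 at an unadjusted p under 0.05 and 1 (Mbp) called by DESeq2. The VB library with the highest sum, replicate 4, was that of 14 cells. Astrocyte markers (3 of 14 measured) summed to 304 to 512 CPM in LGd and 246 to 711 CPM in VB, and microglia markers (3 of 12 measured) to 3.41 to 13.4 CPM in LGd and 5.85 to 89.2 CPM in VB. In each of these lists, 2 of the 3 genes were lower in LGd at an unadjusted p under 0.05. The median log2 fold change was -2.13 for astrocyte and -5.83 for microglia markers. None was called by edgeR, and DESeq2 called the astrocyte marker Aldoc. In bulk samples, fewer cells of a type and less RNA per cell cannot be told apart. The part of these sums in the results below was not tested beyond leaving out each library in turn.

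Few genes were called between the visual and the tactile relay in the main test, while DESeq2 on the 2 groups alone called 179. The absence of a call does not show that a gene is equal in the 2 relays. The 3 smallest p-values were those of the protocadherin Pcdh17, the neurexin ligand Nxph1 and the sorting receptor Sorl1, all lower in LGd. In edgeR's quasi-likelihood test over 16527 genes, with all 120 libraries in the fit and a Benjamini-Hochberg adjusted p under 0.05 as a call, 48 genes (0.29%) were called. Of these, 19 (0.115%) were higher in LGd and 29 (0.175%) were lower in LGd. The ranges of the libraries did not overlap for 36 of the 48, of which 15 were higher in LGd and 21 higher in VB, where 2.15% of all genes tested had ranges that did not overlap. An unadjusted p under 0.05 was reached by 1401 genes (8.48%). The median size of the log2 fold change over the called genes was 4.28, and 33 of them averaged 10 CPM or more in the group where they were higher.

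LGd and VB were each other's nearest group. The group mean of VB had the highest Pearson correlation with that of LGd (r = 0.947 across 12249 genes, a description, since genes are not independent replicates), ahead of LGd and PO (0.933), and for VB the next was the ventral lateral nucleus, VL (0.926). Single libraries of LGd and VB correlated at 0.866 to 0.928 over the 20 pairs, against 0.897 to 0.933 within LGd and 0.867 to 0.920 within VB. Among the 190 pairs of groups with at least 4 libraries each, LGd and VB had the 8th fewest calls. LGd differed from the laterodorsal nucleus (LD) in 300 genes (1.82%), from VL in 377 (2.28%), from PO in 381 (2.31%), from LP in 599 (3.62%) and from the intermediodorsal nucleus (IMD) in 2056 (12.4%). VB differed from VL in 245 genes (1.48%), from LD in 322 (1.95%), from PO in 438 (2.65%) and from LP in 760 (4.6%). The number of calls also depends on the number of libraries in each group.

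**Figure D1:**
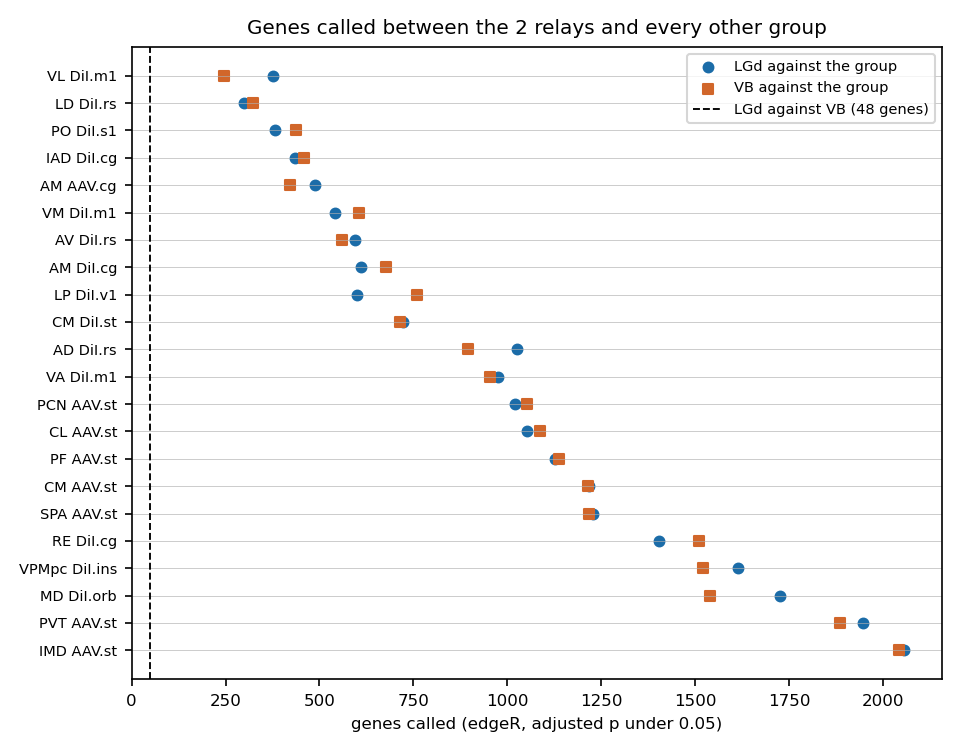
Number of genes called by edgeR (x axis) between LGd (circles) or VB (squares) and each of the other 22 groups (y axis, named by nucleus, tracer and target), with LGd against VB as the dashed line at 48. Both relays had at least 245 calls against every other group.

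The genes higher in LGd included adhesion and guidance molecules. Cadm1, a synaptic adhesion molecule of the immunoglobulin family (chr9:47530173-47857637, + strand, mm10 here and below), had 144, 81.5, 63.4, 34.6 and 73.5 CPM in LGd libraries, against 30.9, 7.61, 13.6 and 13.1 CPM in VB libraries. Every LGd library lay above every VB library, and the log2 fold change was 2.28 (SE 0.39, adjusted p = 0.000114). Epha5, an ephrin-A receptor with a role in topographic mapping of axons (chr5:84054761-84417382, − strand), had 37.2, 43.7, 58.6, 79.6 and 88.4 CPM in LGd, against 10.1, 9.86, 27.5 and 2.67 CPM in VB. Its groups did not overlap either, with a log2 fold change of 2.30 (SE 0.41, adjusted p = 0.000214). Igsf21, a synaptic immunoglobulin protein that binds neurexin (chr4:140026846-140246784, − strand), had 0.682, 27.8, 0.162, 2.31 and 5.52 CPM in LGd, against 0.0791 CPM in VB replicate 1 and no read in the other 3 VB libraries. LGd was thus uneven and VB close to none. The ratio of its summed counts, scaled for depth, was 359.8, with a 95% counting interval of 64.3 to 14243, for an adjusted p of 0.000539. Lrrtm4, a postsynaptic leucine-rich repeat protein (chr6:80018877-80810143, + strand), averaged 9.55 ± 6.58 CPM in LGd and 0.878 ± 0.890 CPM in VB (log2 fold change 3.41, SE 0.86, adjusted p = 0.0448). The called genes were 3 of 62 measured synaptic and immunoglobulin adhesion genes (median log2 fold change of the list 0.09) and 1 of 51 axon guidance genes (median 0.12), where 0.115% of all genes tested were called higher in LGd and the median over all of them was 0.

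The 250 bases before the RefSeq transcription start (GRCm38.p6) are given for 2 genes higher in LGd and 2 lower in LGd, those with the smallest p in each direction among named genes with a single promoter window. They let the start regions of the leading genes be compared by eye, and CG dinucleotides are in capitals.
Epha5, chr5:84417383-84417632, − strand: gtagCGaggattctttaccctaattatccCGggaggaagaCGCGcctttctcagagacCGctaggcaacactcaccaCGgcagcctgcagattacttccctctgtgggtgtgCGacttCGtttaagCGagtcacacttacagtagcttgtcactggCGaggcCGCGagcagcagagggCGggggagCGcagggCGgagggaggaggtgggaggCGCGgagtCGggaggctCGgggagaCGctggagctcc
Igsf21, chr4:140246812-140247061, − strand: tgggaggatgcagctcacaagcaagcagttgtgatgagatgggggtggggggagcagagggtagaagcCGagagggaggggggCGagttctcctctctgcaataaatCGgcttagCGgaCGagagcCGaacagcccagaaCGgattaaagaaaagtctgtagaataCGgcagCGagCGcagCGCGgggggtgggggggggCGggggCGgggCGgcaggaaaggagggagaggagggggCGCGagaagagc
Pcdh17, chr14:84443313-84443562, + strand: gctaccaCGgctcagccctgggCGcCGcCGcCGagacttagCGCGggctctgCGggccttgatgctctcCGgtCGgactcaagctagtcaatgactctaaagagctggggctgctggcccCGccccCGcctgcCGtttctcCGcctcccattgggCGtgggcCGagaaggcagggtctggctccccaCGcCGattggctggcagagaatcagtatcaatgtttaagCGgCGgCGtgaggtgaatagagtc
Nxph1, chr6:8949769-8950018, + strand: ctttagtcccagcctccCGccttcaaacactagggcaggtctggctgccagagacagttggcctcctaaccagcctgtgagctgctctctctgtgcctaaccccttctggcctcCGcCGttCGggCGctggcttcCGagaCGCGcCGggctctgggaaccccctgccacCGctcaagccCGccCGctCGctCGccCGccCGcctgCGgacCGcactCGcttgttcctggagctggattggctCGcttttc
The windows held 20 CG dinucleotides in Epha5, 17 in Igsf21, 21 in Pcdh17 and 20 in Nxph1. A window was found for 36 of the 48 called genes, whose median was 12 CG dinucleotides, against 16 over the 9565 genes of the table with a window. AGGTCA, the core of the sites that retinoid-related orphan receptors such as Rora and Rorb bind, was searched on both strands. It occurred in none of these 4 windows, in 1 of the 36 called genes (2.78%, the unnamed model Gm13544) and in 977 of the 9565 genes (10.2%).

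A glutamate receptor, a calcium channel and a Reelin adaptor were also higher in LGd. Grik3, a kainate-type glutamate receptor subunit (chr4:125490700-125714173, + strand), had 67.5, 129.7, 136, 53.6 and 147 CPM in LGd, against 14.7, 16.3, 0 and 11.7 CPM in VB. The groups did not overlap, with a log2 fold change of 3.32 (SE 0.79, adjusted p = 0.0258). Grik3 was the only called gene of 24 measured glutamate receptor genes, where 0.29% of all genes tested were called. DESeq2 and edgeR's newer fit also called Gria1, another member of that list. Dab1, the intracellular adaptor of Reelin signalling (chr4:103619359-104744844, + strand), had 91.0, 62.2, 49.3, 80.2 and 50.9 CPM in LGd, against 0.0791, 0, 0.102 and 0 CPM in VB. Every LGd library held at least 49.3 CPM of Dab1, while the VB libraries held 2 reads together, a ratio of summed counts scaled for depth of 1581 (95% counting interval 437 to 13057, adjusted p = 0.0154). LP held 12.4 ± 6.21 CPM of Dab1 (n = 9) and PO 0.948 ± 1.57 CPM (n = 7), and LGd had the highest mean of all 24 groups. Cacna1e, the pore subunit of the R-type calcium channel (chr1:154390731-154884501, − strand), was low in both relays, with 26.0 CPM in LGd replicate 2, at most 1.28 CPM in the other LGd libraries and at most 0.259 CPM in VB. Its log2 fold change of 5.25 (SE 1.05, adjusted p = 0.00199) was not called without LGd replicate 2, while LP held 312 ± 93.4 CPM and PO 181 ± 62.8 CPM.

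Rph3a, Rapgef4, Pde4b, Lgi1 and Mgll were also higher in LGd. Rph3a, a Rab3 effector on synaptic vesicles (chr5:120940499-121010092, − strand), had 584, 486, 407, 440.2 and 545 CPM in LGd, against 183, 241, 152 and 92.5 CPM in VB. The 2 ranges were well apart, with a log2 fold change of 1.56 (SE 0.28, adjusted p = 0.000214). Rapgef4, a guanine nucleotide exchange factor activated by cyclic AMP (chr2:71981240-72257474, + strand), averaged 26.7 ± 6.24 CPM in LGd and 2.05 ± 2.18 CPM in VB (log2 fold change 3.68, SE 0.81, adjusted p = 0.00922). Pde4b, a phosphodiesterase that degrades cyclic AMP (chr4:102087543-102607259, + strand), averaged 79.7 ± 16.1 CPM in LGd and 22.8 ± 13.8 CPM in VB (log2 fold change 1.81, SE 0.40, adjusted p = 0.0102), but was not called without VB replicate 2, its lowest library at 2.33 CPM. It was the only called gene of 48 measured cyclic nucleotide and G protein signalling genes, where 0.29% of all genes tested were called. At an unadjusted p under 0.05, 3 of that list were higher and 3 lower in LGd (12.5%, against 8.48% of all genes tested). Lgi1, a secreted ligand of synaptic ADAM22 receptors (chr19:38264536-38312214, + strand), averaged 74.0 ± 24.9 CPM in LGd and 20.3 ± 10.7 CPM in VB (adjusted p = 0.0273). Mgll, the lipase that degrades the endocannabinoid 2-arachidonoylglycerol (chr6:88724412-88828360, + strand), had 23.8, 67.6, 19.2, 29.0 and 31.3 CPM in LGd, against 7.67, 0.259, 4.48 and 0.267 CPM in VB (log2 fold change 3.43, SE 0.85, adjusted p = 0.0387). Calb2 (calretinin, a calcium-binding protein; 5.65 ± 8.75 CPM in LGd, 0.114 ± 0.0926 CPM in VB, adjusted p = 0.0221) and Sntb1 (a syntrophin of the dystrophin complex; 3.79 ± 5.01 CPM in LGd, 0.126 ± 0.164 CPM in VB, adjusted p = 0.000969) were low in both groups and led by LGd replicate 1, without which neither was called. Stum, Epb41l4a, Defb1 and 2 unnamed models were the other genes higher in LGd. Of these, Stum averaged 342 ± 168 CPM in LGd and 116 ± 82.0 CPM in VB (log2 fold change 1.56, SE 0.39, adjusted p = 0.0414).

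**Figure D2:**
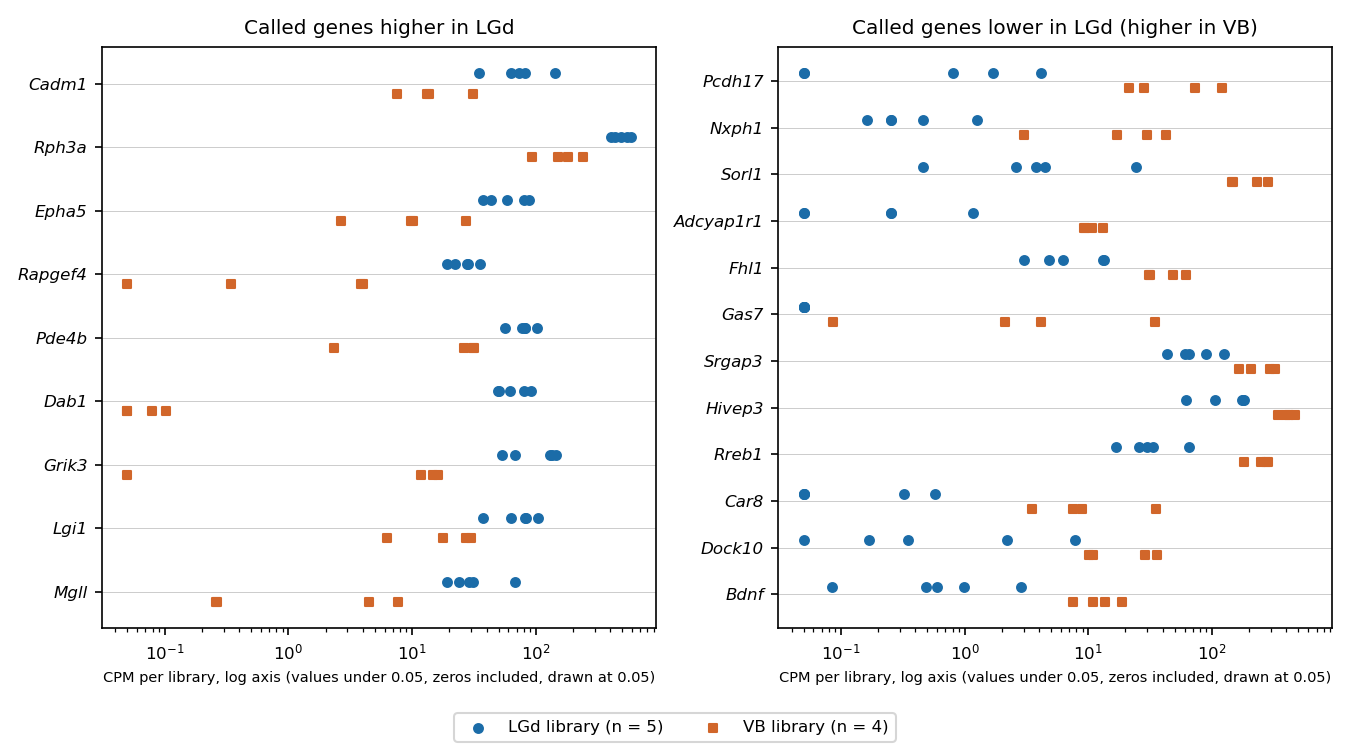
CPM in each LGd library (circles, n = 5) and each VB library (squares, n = 4), on a log axis, for named genes that were called, averaged 10 CPM or more where higher, and had no overlap between the groups. Genes higher in LGd are on the left and genes lower in LGd on the right, and values under 0.05 CPM are drawn at 0.05.

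The genes lower in LGd were led by the protocadherin Pcdh17, a homophilic adhesion molecule of axons and synapses (chr14:84443563-84539002, + strand). Pcdh17 had 4.17, 1.70, 0, 0 and 0.813 CPM in LGd, against 120.2, 73.2, 28.0 and 21.5 CPM in VB. The lowest VB library was above the highest LGd library, and the log2 fold change was -5.49 (SE 0.51, adjusted p = 5.61e-15, the smallest of the comparison). It was the only called gene of 30 measured cadherins and protocadherins, where 0.175% of all genes tested were called lower in LGd. At an unadjusted p under 0.05 the list held 7 genes (23.3%, against 8.48% of all genes tested), 1 higher and 6 lower in LGd. DESeq2 also called Cdh6, Cdh13 and Pcdh11x. Nxph1, a secreted ligand of alpha-neurexins (chr6:8948431-9249032, + strand), had 0.256, 0.254, 0.162, 1.27 and 0.465 CPM in LGd, against 42.1, 29.6, 17.1 and 3.0 CPM in VB. Its groups did not overlap, with a log2 fold change of -5.64 (SE 0.57, adjusted p = 4.20e-13). The gene list of neuropeptides and secreted synaptic organisers (22 measured) thus had 1 call in each direction, Lgi1 higher and Nxph1 lower in LGd. Igsf11, another immunoglobulin adhesion gene, rested on 5.62 CPM in VB replicate 2 and 31.2 CPM in VB replicate 4, with no read in the other 2 VB libraries (adjusted p = 0.0405).

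Of 20 measured peptide, opioid and cannabinoid receptors, 2 were called, both lower in LGd (0.175% of all genes tested). At an unadjusted p under 0.05 the list held 2 higher and 2 lower (20%, against 8.48% of all genes tested). Adcyap1r1, the PAC1 receptor of the neuropeptide PACAP (chr6:55451978-55501451, + strand), had 0.256, 0.254, 0, 0 and 1.2 CPM in LGd, against 13.2, 9.25, 10.7 and 9.40 CPM in VB. The VB libraries were even and all above LGd (log2 fold change -4.79, SE 0.83, adjusted p = 0.000119). Oprm1, the mu-opioid receptor (chr10:6758506-7038198, + strand), had 0.0852, 0.0848, 0.324, 0 and 1.05 CPM in LGd, against 7.43, 47.1, 0 and 0.0667 CPM in VB. Its groups overlapped, since 2 VB libraries were as low as LGd. The log2 fold change of -5.25 (SE 0.91, adjusted p = 0.000119) was not called without VB replicate 2. Bdnf, the neurotrophin ligand of TrkB (chr2:109674700-109727007, + strand), had 0.596, 0.0848, 0.487, 2.89 and 0.988 CPM in LGd, against 10.8, 18.7, 13.7 and 7.53 CPM in VB, a log2 fold change of -3.67 (SE 0.89, adjusted p = 0.0307). All 4 VB libraries were above LGd. Bdnf was the only called gene of 26 measured growth factor signalling genes, where 0.29% of all genes tested were called.

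The called transcription factors were lower in LGd. Rorb, the retinoid-related orphan receptor beta (chr19:18930605-19111196, − strand), had 676, 471, 464, 489 and 416 CPM in LGd, against 969, 2422, 1137 and 913 CPM in VB. It was expressed in every library of both relays, with a log2 fold change of -1.43 (SE 0.31, adjusted p = 0.00895) that was not called without VB replicate 2, the highest library. It was the only called gene of 57 measured thalamic and homeobox transcription factors, where 0.29% of all genes tested were called. Rreb1, a Ras-responsive zinc finger protein (chr13:37778400-37952005, + strand), had 33.7, 29.6, 65.6, 16.7 and 25.7 CPM in LGd, against 181, 285, 248 and 271 CPM in VB (log2 fold change -2.84, SE 0.61, adjusted p = 0.00619). Hivep3, another zinc finger protein (chr4:119733784-120138045, + strand), had 181, 179, 62.1, 105 and 174 CPM in LGd, against 344, 469, 422 and 398 CPM in VB (log2 fold change -1.54, SE 0.32, adjusted p = 0.00270). The groups did not overlap for these 2 genes.

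Other genes with lower levels in LGd were Sorl1, Srgap3, Fhl1, Ank3, Fryl, Phf24, Car8 and Dock10. Sorl1, a sorting receptor of endosomes (chr9:41964720-42124297, − strand), had 3.75, 24.4, 4.46, 0.462 and 2.61 CPM in LGd, against 233, 285, 148 and 146 CPM in VB. The gap was wide (log2 fold change -4.82, SE 0.66, adjusted p = 2.43e-07), and LGd had the lowest mean of the 24 groups, while VB ranked 8th. Srgap3, a GTPase-activating protein of the Slit-Robo pathway (chr6:112717971-112947266, − strand), had 125, 65.6, 43.2, 88.9 and 60.0 CPM in LGd, against 292, 326, 167 and 208 CPM in VB (log2 fold change -1.70, SE 0.34, adjusted p = 0.00188). Fhl1, a LIM-domain protein (chrX:56731787-56793346, + strand), averaged 8.13 ± 4.83 CPM in LGd and 43.1 ± 14.8 CPM in VB (log2 fold change -2.40, SE 0.42, adjusted p = 0.000130). Ank3, which encodes ankyrin-G of the axon initial segment (chr10:69398773-70027438, + strand), had 1361, 1273, 1383, 1472 and 1394 CPM in LGd, against 1894, 3024, 1929 and 1713 CPM in VB. With a log2 fold change of -0.64 (SE 0.15, adjusted p = 0.0294) it had the smallest change of the called genes named here, in a narrow LGd range. Ank3 was the only called gene of 21 measured axonal cytoskeleton genes, where 0.29% of all genes tested were called. At an unadjusted p under 0.05, 2 of that list were higher and 1 lower in LGd (14.3%, against 8.48% of all genes tested). Fryl, a Furry-like protein (chr5:73019987-73256619, − strand), averaged 378 ± 37.3 CPM in LGd and 944 ± 93.1 CPM in VB (log2 fold change -1.32, SE 0.22, adjusted p = 4.92e-05). Phf24, a PHD finger protein, averaged 85.3 ± 30.5 CPM in LGd and 217 ± 8.14 CPM in VB (adjusted p = 4.92e-05). Car8, a carbonic anhydrase-related protein that binds the IP3 receptor (0.181 ± 0.264 CPM in LGd, 13.8 ± 14.4 CPM in VB, adjusted p = 0.0102), and Dock10, a guanine nucleotide exchange factor (2.10 ± 3.30 CPM in LGd, 21.3 ± 12.9 CPM in VB, adjusted p = 0.0167), did not overlap between the groups.

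No LGd library had a read of 5 of the called genes. Gas7, an actin-associated protein (chr11:67455437-67688990, + strand), had 2.13, 0.0865, 4.17 and 34.4 CPM in VB, at least 245-fold higher in VB against a floor of 3 counts over the LGd libraries together (adjusted p = 0.000214). That bound was 41.7-fold without VB replicate 4. Myo1e, a class I myosin, was at least 96.9-fold higher in VB, but 18 CPM in VB replicate 1 carried its mean and the other 3 VB libraries had at most 0.204 CPM (adjusted p = 0.0307). Hebp1, a heme-binding protein, was at least 58.3-fold higher in VB (adjusted p = 0.0395), but at least 20.9-fold without VB replicate 1, and its call was lost in 7 of the 9 fits without 1 library. The unnamed models Gm33366 and Gm15902 were at least 125-fold and 138-fold higher in VB, against 45.6-fold and 75.2-fold without VB replicate 2. In the other direction, Defb1, a beta-defensin (at least 50.8-fold higher in LGd, 33.1-fold without LGd replicate 2, adjusted p = 0.0333), and the unnamed model 9330158H04Rik (at least 93.2-fold, 24.2-fold without LGd replicate 3, adjusted p = 0.0221) had no read in VB. Stxbp6 (a SNARE-binding protein; 7.67 ± 11.4 CPM in LGd, 62.0 ± 73.4 CPM in VB, adjusted p = 0.000116), Ankrd34b (adjusted p = 0.00719), Mctp1 (adjusted p = 0.0307) and Fam65b (adjusted p = 0.0472) had ranges that overlapped between the groups or nearly met.

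The spans of 2 called genes hold a microRNA gene on the same strand, that of Grik3 holding Mir692-2 and that of C130071C03Rik holding Mir9-2. C130071C03Rik (chr13:83721381-83884194, + strand) is a long non-coding RNA. It had 0, 0.763, 0.243, 4.62 and 0.581 CPM in LGd, against 35.8, 17.0, 28.6 and 24.1 CPM in VB. The groups did not overlap, with a log2 fold change of -4.44 (SE 0.76, adjusted p = 0.000114). Gm33366, called as well, lies inside it on the opposite strand, so the reads of the 2 genes cannot be told apart. The mature products of Mir9-2 are given from RefSeq (GRCm38.p6), since most of the host transcript's reads were in VB, with the seed, bases 2 to 8, in capitals.
mmu-miR-9-5p, chr13:83738821-83738843, + strand: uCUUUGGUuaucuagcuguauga
mmu-miR-9-3p, chr13:83738858-83738879, + strand: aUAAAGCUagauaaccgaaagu
The 2 arms have different seeds. The counts are of long RNA fragments over the host transcript and do not measure either mature microRNA.

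Since the libraries carry no strand information, reads of Sorl1, Oprm1, Gas7, Srgap3, Rapgef4, Lgi1, Lrrtm4, Mgll, Bdnf, Hebp1, Ankrd34b, D430041D05Rik, C130071C03Rik, Gm33366, Gm13544 and 9330158H04Rik cannot be told apart from those of the antisense genes that overlap them, and those of Hivep3 from a gene on its own strand. For 9330158H04Rik the partner is Chrm2, a muscarinic receptor with 56.1 ± 25.5 CPM in LGd and 8.55 ± 7.29 CPM in VB (adjusted p = 0.105).

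Several neuronal gene lists had no call. Voltage-gated potassium channels (34 measured genes) had no call by edgeR, limma-voom or the 2 groups alone, with 5 at an unadjusted p under 0.05 (14.7%, against 8.48% of all genes tested) and 1 (Kcnab3) called by DESeq2. None of 13 sodium channel genes was called by any of these tools, with 2 at an unadjusted p under 0.05 (15.4%). Scn3b, a sodium channel beta subunit, was the nearest, at 24.1 ± 14.9 CPM in LGd and 4.06 ± 5.79 CPM in VB (adjusted p = 0.0543). None of 19 GABA and glycine receptor genes was called by any of these tools, with 4 at an unadjusted p under 0.05 (21.1%). Of 48 synaptic vesicle and release genes, 8 had an unadjusted p under 0.05 (16.7%) and none was called by edgeR's main fit or DESeq2. Syt2 was called by limma-voom and by edgeR's newer fit. Oxidative phosphorylation genes (75 measured) had no call by any of these tools and a median log2 fold change of -0.27. Of these, 5 had an unadjusted p under 0.05 (6.67%, below the 8.48% of all genes tested), all lower in LGd. Immediate early and stress genes (19 measured) had no call and none at an unadjusted p under 0.05, and summed to 1091 to 1458 CPM in LGd and 1158 to 1499 CPM in VB.

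Other members of the lists did not pass the test but differed without overlap between the libraries, and were called by DESeq2 or another tool. They were chosen for that after their values were seen. Gfra1, the GDNF co-receptor, averaged 44.1 ± 13.3 CPM in LGd and 0.892 ± 1.72 CPM in VB, and its lowest LGd library of 23.8 CPM was above its highest VB library of 3.47 CPM (adjusted p = 0.348). Wnt9b, a secreted Wnt ligand, averaged 31.3 ± 5.72 CPM in LGd and 3.21 ± 2.10 CPM in VB (adjusted p = 0.521). Hpca, the calcium sensor hippocalcin, averaged 116 ± 37.6 CPM in LGd and 30.7 ± 4.66 CPM in VB (adjusted p = 0.760). These 3 genes were high in all LGd libraries. Nr2f2 (COUP-TFII), a nuclear receptor, averaged 23.5 ± 7.62 CPM in LGd and 146 ± 69.2 CPM in VB (adjusted p = 0.0593). Cdh6, a type II cadherin, averaged 19.1 ± 6.24 CPM in LGd and 88.2 ± 22.8 CPM in VB (adjusted p = 0.437). Syt2, a fast calcium sensor of release, averaged 1.69 ± 3.51 CPM in LGd and 33.3 ± 17.2 CPM in VB (adjusted p = 0.450). Npy, a neuropeptide also listed among the inhibitory neuron markers, had no read in LGd and 8.87 ± 6.72 CPM in VB (adjusted p = 0.117). In these 4 genes every VB library was above every LGd library.

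The called genes were next placed among the 24 groups of the series by their mean CPM. For 14 of the 19 genes higher in LGd, VB had the lowest mean of all groups, and for 18 VB was among the lowest 2. LGd was among the top 12 groups for 2 of the 19, Dab1 (1st) and Grik3 (4th). For 21 of the 29 genes lower in LGd, LGd had the lowest mean of all groups, and VB was among the top 12 for 11 and the highest for 3 (Ank3, Fryl and Rorb). The LP mean was above the LGd mean for 15 of the 19, and the PO mean above the VB mean for 14 of the 29. In 35 of the 48 genes the relay with less had the lowest mean of all groups. A gene is called because 1 relay is low beside the other, so these ranks follow in part from the call. The share over all genes tested was not computed. Of the 48 genes, 32 were also called between LGd and LP (background 3.62%) and 26 between VB and PO (background 2.65%), comparisons that share the LGd or VB libraries.

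**Figure D3:**
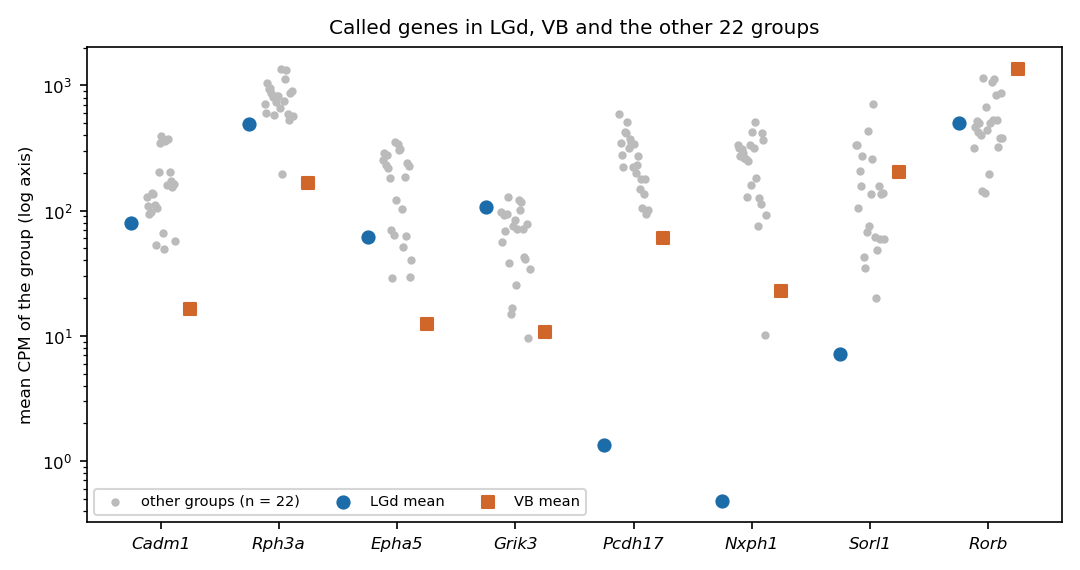
Mean CPM (log axis) of 8 called genes in LGd (circle), in VB (square) and in each of the other 22 groups (grey points). VB was the lowest group for Cadm1, Rph3a and Epha5, LGd was the lowest for Pcdh17, Nxph1 and Sorl1, and VB was the highest for Rorb.

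The same pair of cortical targets was compared in the higher-order nuclei, LP against PO, which share no library with LGd or VB. LP against PO gave 58 calls (0.351%). Of the 48 genes called between LGd and VB, 32 had the same sign between LP and PO and 3 were called there. Cadm1 was higher in LP too, at 204 ± 65.7 CPM in LP and 57.3 ± 31.0 CPM in PO (log2 fold change 1.83, SE 0.29, adjusted p = 3.46e-05). Pde4b was also higher in LP, at 216 ± 59.6 CPM in LP and 85.9 ± 49.7 CPM in PO (log2 fold change 1.33, SE 0.30, adjusted p = 0.0118). For both, the difference between the 2 log2 fold changes was not called (Cadm1 0.45, SE 0.46, and Pde4b 0.48, SE 0.48). Srgap3 went the other way, at 194 ± 61.1 CPM in LP and 89.0 ± 22.3 CPM in PO (log2 fold change 1.13, SE 0.26, adjusted p = 0.0172).

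The difference of the 2 contrasts, LGd over VB less LP over PO, was called for 33 genes (0.2%), 7 of them positive (0.0424%) and 26 negative (0.157%), and 18 of the 33 were among the 48. This contrast contains the LGd and VB libraries and the fold change by which the 48 were called, so the overlap is partly built in. Of these 18, 5 were still called with same-date libraries only, 8 in edgeR's newer fit and 12 with the amplification date as a block. Nxph1, Pcdh17, Sorl1 and Srgap3 were the 4 called in all of these. Pcdh17 had 105 ± 67.4 CPM in LP and 101 ± 29.9 CPM in PO, a log2 fold change of 0.06 (SE 0.32) beside -5.49 between LGd and VB (difference -5.54, SE 0.58, adjusted p = 6.76e-12). Nxph1, with 113 ± 45.4 CPM in LP and 93.1 ± 33.5 CPM in PO (difference -5.92, SE 0.65, adjusted p = 4.01e-11), was close to even in the higher-order pair as well. Sorl1, with 159 ± 81.8 CPM in LP and 59.0 ± 25.8 CPM in PO, leaned the opposite way in the higher-order pair (difference -6.25, SE 0.80, adjusted p = 1.40e-08), as did Srgap3 (difference -2.82, SE 0.43, adjusted p = 5.49e-06). Adcyap1r1 held 104 ± 36.7 CPM in LP and 99.9 ± 51.0 CPM in PO, and Fhl1 151 ± 86.3 CPM in LP and 118 ± 47.4 CPM in PO, above both first-order relays. Rph3a had 590.4 ± 134 CPM in LP and 569 ± 113 CPM in PO, above LGd and VB (difference 1.51, SE 0.34, adjusted p = 0.0188). Mgll was called in the positive direction as well (difference 4.46, SE 1.01, adjusted p = 0.0188), with 19.2 ± 6.35 CPM in LP and 39.3 ± 21.8 CPM in PO. For Dab1 (difference 6.68, SE 2.27, adjusted p = 0.204) and Epha5 (difference 1.66, SE 0.49, adjusted p = 0.131) a difference between the pairs was not called.

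**Figure D4:**
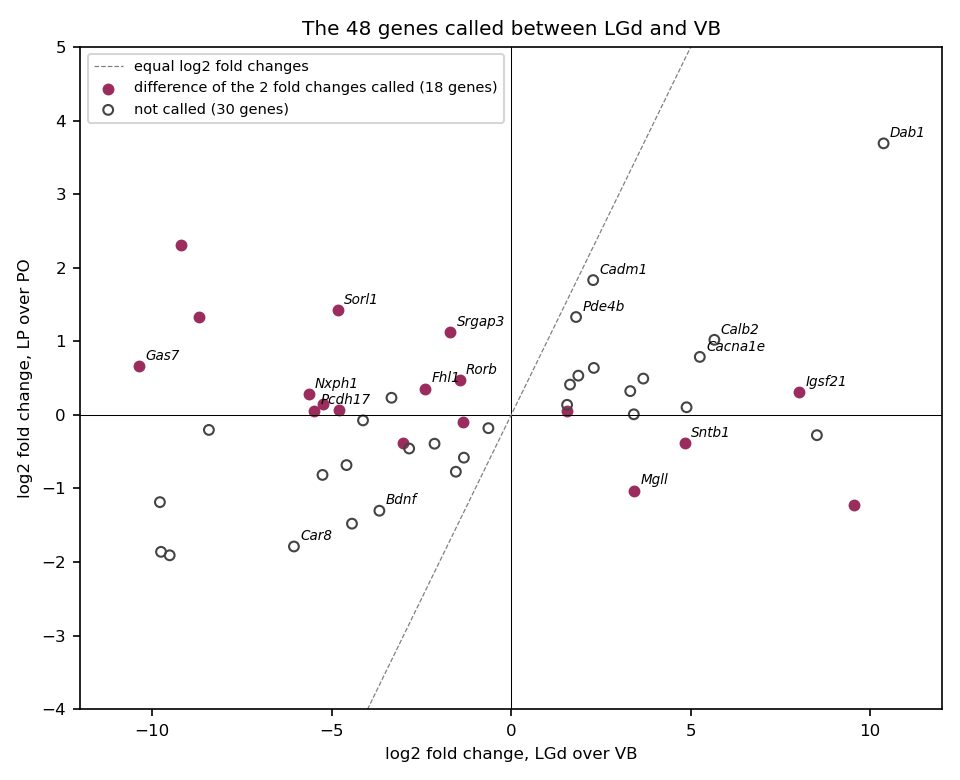
Log2 fold change of LGd over VB (x axis) and of LP over PO (y axis) for the 48 genes called between LGd and VB, with a dashed line of equal values. Filled points are the 18 genes whose difference between the 2 contrasts was called, and Cadm1 and Pde4b are the called genes nearest to the line on the side higher in LGd and LP.

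LGd and VB were then set together against LP and PO, to describe what the 2 first-order relays share. The 3 markers below were named for this pair in advance, with earlier results of these data known. Their levels are therefore a description and cannot check the first-order label. The mean of LGd and VB differed from the mean of LP and PO in 1274 genes (7.71%), of which 454 (2.75%) were higher and 820 (4.96%) lower in LGd and VB. Scnn1a, an epithelial sodium channel subunit known as a marker of sensory relay neurons and layer 4, had 53.4, 32.8, 41.0, 32.0 and 41.1 CPM in LGd and 11.5, 3.8, 0.611 and 10.1 CPM in VB, against at most 0.206 CPM in LP and 3.14 CPM in PO. It was 7.18 higher on the log2 scale in LGd and VB (SE 1.43, adjusted p = 0.000161). Slco2a1, a prostaglandin transporter, averaged 79.2 ± 22.2 CPM in LGd and 164 ± 40.9 CPM in VB, against 18 ± 8.51 CPM in LP and 41.7 ± 20.9 CPM in PO (log2 fold change 2.06, SE 0.72, adjusted p = 0.0592). Tnnt1, a troponin T of slow muscle, averaged 239.6 ± 58.4 CPM in LGd and 224 ± 82.4 CPM in VB, against 58.5 ± 30.5 CPM in LP and 117 ± 30.3 CPM in PO (log2 fold change 1.48, SE 0.51, adjusted p = 0.0527). All 3 had their 2 highest group means in LGd and VB, and Scnn1a was called by the main test. For Slco2a1 the next group was VL, at 64.1 ± 27.7 CPM (n = 6). Its range of 32.7 to 95.1 CPM overlapped that of LGd, 61.2 to 112 CPM. Slco2a1 and Tnnt1 were called by DESeq2 (adjusted p = 6.77e-14 for Slco2a1 and 4.80e-08 for Tnnt1), by edgeR on the 4 groups alone (1.66e-07 and 1.16e-05), by edgeR's newer fit (3.47e-09 and 2.24e-06) and with same-date libraries only (3.86e-06 and 0.000310), but not with the amplification date as a block (0.161 and 0.207).

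Between LGd and VB themselves these 3 markers were not called by the main test. Scnn1a was above VB in every LGd library, without overlap, yet its log2 fold change of 2.62 had an SE of 2.11 (adjusted p = 0.871). In a fit of the 2 groups alone the adjusted p was 0.259 and limma-voom gave 0.237, while Scnn1a was called by DESeq2 (0.0044) and by edgeR's newer fit (0.0402). Slco2a1 ran the other way, with all 5 LGd libraries (61.2 to 112 CPM) below all 4 VB libraries (114 to 213 CPM), and was not called either (log2 fold change -1.05, SE 1.17, adjusted p = 0.953), while DESeq2 gave 0.0287. Tnnt1 overlapped between the groups, with a log2 fold change of 0.10 (SE 0.83).

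**Figure D5:**
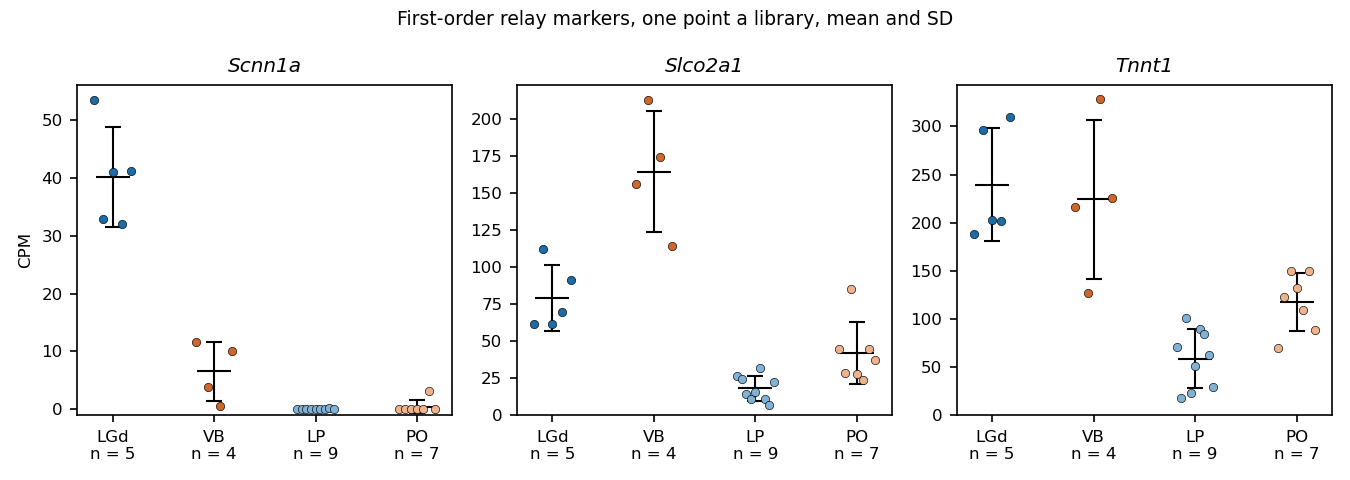
CPM of Scnn1a, Slco2a1 and Tnnt1 in each library of LGd (n = 5), VB (n = 4), LP (n = 9) and PO (n = 7), with the mean and SD as bars. Scnn1a averaged 40.1 CPM in LGd and 6.52 CPM in VB, Slco2a1 79.2 CPM in LGd and 164 CPM in VB, and Tnnt1 had overlapping values in LGd and VB.

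Further genes marked what the 2 relays shared against LP and PO. Pvalb (parvalbumin, a calcium buffer) averaged 26.1 ± 8.88 CPM in LGd and 53.7 ± 17.9 CPM in VB, against 0.0901 ± 0.204 CPM in LP and 0.114 ± 0.0865 CPM in PO (log2 fold change 8.41, SE 0.98, adjusted p = 6.47e-11). Gcnt4, a glycosyltransferase, averaged 23.4 ± 9.64 CPM in LGd and 34 ± 15.3 CPM in VB, with no read in LP and at most 0.141 CPM in PO. Sema6d (a semaphorin), Vamp1 (a vesicle SNARE), Nefm (the medium neurofilament) and Map1a (a microtubule-associated protein) were higher in LGd and VB as well, by 2.34, 2.30, 1.77 and 1.04 on the log2 scale. For each of these 6 genes both relays were among the 5 highest of the 24 groups. The genes lower in both relays included Cacna1e (log2 fold change -8.01), Fnbp1l (-6.97), Sphkap (-5.72), Nxph1 (-4.98), Grin3a (-4.39) and Ddah1 (-1.62). Of the 48 genes called between LGd and VB, 38 were also called in this comparison, which shares the LGd and VB libraries.

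The calls between LGd and VB depended on the test and on the amplification date. DESeq2 called 179 genes, 31 of them among the 48, and the 2 groups alone gave 19 calls, 12 of them among the 48. With the amplification date as a block, which can be estimated only through the other nuclei, 11 genes were called and Pcdh17 was the only one of the 48 (log2 fold change -5.41, adjusted p = 0.0114). In that fit all 48 genes kept their sign, with a log2 fold change at least as large as reported for 22 and smaller for 26. It was -5.51 for Sorl1, -3.75 for Rreb1, -5.03 for Adcyap1r1 and 7.85 for Igsf21, and smaller for Nxph1 (-1.18), Fhl1 (-0.43) and Rph3a (1.00). The genes Pcdh17, Nxph1, Sorl1, Rreb1, Rorb, Hivep3, Fryl, Rph3a, Dab1, D430041D05Rik and Gm13544, 11 of the 48, were called by all 4 other tests of the same comparison (DESeq2, the 2 groups alone, edgeR's newer fit and limma-voom). By contrast, 12 of the 48 were called by none of these 4 tests, not all of which gave a value for every gene. Among the 12 were Pde4b, Cacna1e, Sntb1, Igsf11, Myo1e, Hebp1, Defb1, Epb41l4a, Mctp1, Ankrd34b and Fam65b. Of the 48, 18 stayed called whichever of the 9 libraries was left out, among them Pcdh17, Nxph1, Sorl1, Adcyap1r1, Cadm1, Epha5, Igsf21, Rph3a, Fhl1, Gas7, Srgap3, Hivep3, Rreb1, Fryl and Phf24. Each of the other 30 lost its call without at least 1 library. Of those described above, the highest adjusted p without 1 library was 0.0866 for Dab1 (not called without VB replicate 2, 3 or 4), 0.0855 for Rapgef4 (VB replicate 2 or 3), 0.0618 for Car8 (LGd replicate 1 or 2, VB replicate 1), 0.147 for Pde4b, 0.288 for Oprm1 and 0.329 for Rorb (VB replicate 2 each), 0.0540 for Sntb1 (LGd replicate 1) and 0.661 for Cacna1e (LGd replicate 2). Grik3 (0.131), Lgi1 (0.251), Mgll (0.240), Stum (0.317), Ank3 (0.495), Calb2 (0.328) and Dock10 (0.0923) were not called in 5 of the 9 fits without 1 library, Bdnf (0.135) in 6 and Lrrtm4 (0.252) in 7. Without VB replicate 4, the library with the most oligodendrocyte RNA, 40 genes were called and 34 of them were among the 48.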

How the data were processed

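Bulk RNA-seq was made from hand-picked, retrogradely labelled neurons. Per the labels' protocols, slices were digested with pronase in the presence of activity blockers, areas were microdissected, total RNA was purified (PicoPure, ERCC spike-ins added) and converted to amplified cDNA with Ovation RNA-seq v2, without molecular identifiers and without strand. Reads were handled with cutadapt 1.16, STAR 2.5.3a and featureCounts 1.52 and the build mm10, per the submitters' processing notes. Their settings are not given in the sources used here. What the authors deposited is a table of raw counts for 16538 genes, each with at least 23 counts over the series and reads in at least 3 libraries, and a second table of sex, age, animals, number of cells and amplification date.

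The main test was edgeR 4.0.16 (R 4.3.3) in a single fit of 120 libraries with 1 coefficient for each of 24 groups, TMM factors, filterByExpr (minimum count 10, minimum total count 15, leaving 16527 genes) and the quasi-likelihood F test in its legacy form. Genes with an adjusted p (Benjamini-Hochberg over all genes tested, two-sided) under 0.05 are called. Contrasts were LGd less VB, LP less PO, the difference of these, and the mean of LGd and VB less that of LP and PO. CPM use TMM-scaled library sizes, and values are mean ± SD over libraries. Fold changes of genes with no read in a group are lower bounds from a floor of 3 counts over the group, and ratios with 1 to 3 counts have 95% exact counting intervals, which cover counting error only, as reads without identifiers are not independent molecules. The precision rests on total counts of 8740008 to 16856173 per library. The 9 libraries came from separate animals or pools of animals, each group within 1 amplification date. The p-values do not measure the spread of these 9 libraries alone. They rest on the spread between libraries of the same group, estimated for each gene over all 24 groups together (96 residual degrees of freedom). Some of those groups, such as LP and PO, hold 2 dates. Over the 16 pairs of libraries within LGd and within VB, the chi-square of the counts was 73.6 to 265.6 times its degrees of freedom and no pair was identical, so each library was counted as 1 sample. Coordinates are from GENCODE M21, matched for 16495 identifiers, and sequences from RefSeq (GRCm38.p6). Alternatives used DESeq2 1.42.0 and limma 3.58.1, and figures matplotlib 3.10.9 under Python 3.11.15.

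The members, gene lists and rules were chosen with earlier results of these data known. Genes named are the 12 largest called changes in each direction among genes that averaged 10 CPM or more where higher and had no overlap between the groups, up to 3 called members per list and direction, the 3 markers named for the pair, Slc17a6, Tcf7l2 and Rora, the 6 smallest p in each direction among genes called both in LGd against VB and in the difference of contrasts, and 6 in each direction between the first-order and higher-order pairs. The remaining called genes and the list members called only by another tool were named after their values were seen, and 1 called gene is not reported here. Oligodendrocyte, astrocyte, microglia, endothelial, inhibitory and pyramidal neuron markers were summed per library. None of 14 endothelial and mural markers was in the table, and 7 of 14 pyramidal neuron markers summed to 1656 to 2037 CPM in LGd and 1306 to 1982 CPM in VB. Gad1 and Gad2 were not used here.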

Additional observations from a re-analysis of the deposited data

Results flagged for a closer look

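Single libraries stood apart within their group for several genes, by the gap to the nearest other library relative to the range. The check was run 83 times and marked 21 values. Chance would mark about 1 in 20 groups only if values were normally spread and genes independent. Here the values were CPM of few libraries, some of a few CPM, and genes share their libraries. The number of marks is therefore not read against that rate. VB replicate 2 was marked most often. It was high for Rora (6928 CPM, others 2797 to 3249), Rorb (2422 CPM, others 913 to 1137), Ank3 (3024 CPM, others 1713 to 1929), Tcf7l2 (1671 CPM, others 1168 to 1201) and Oprm1 (47.1 CPM, others at most 7.43), and low for Gcnt4 (11.2 CPM, others 39.4 to 44.0). Its correlation with the mean of the other VB libraries was 0.894, the lowest of the 9, and its microglia marker sum of 89.2 CPM was the highest. Without VB replicate 2, 28 of the 48 genes stayed called and 20 lost their call, the most lost without any single library. Oprm1, Rorb and Ank3 were among the 20. The part of these values in the calls was not tested beyond that.

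VB replicate 4 was high for Gas7 (34.4 CPM), and VB replicate 1 was high for Grin3a (45.6 CPM) and Fnbp1l (2.93 CPM). Among LGd libraries, replicate 2 was high for Cacna1e (26.0 CPM), Igsf21 (27.8 CPM), Mgll (67.6 CPM) and Sorl1 (24.4 CPM). LGd replicate 1 was high for Grin3a (10.8 CPM), Calb2 (21 CPM), Sntb1 (12.6 CPM) and Rorb (676 CPM). LGd replicate 3 was high for Dock10 (7.79 CPM) and low for Ddah1 (189 CPM), LGd replicate 4 was high for Nxph1 (1.27 CPM), and LGd replicate 5 was high for Adcyap1r1 (1.2 CPM).

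For 13 named genes the log2 fold change of LGd over VB differed from that of LP over PO by edgeR's test of the difference itself. The difference was positive for Igsf21 (7.71, adjusted p = 0.00832), Sntb1 (5.23, adjusted p = 0.00434), Mgll (4.46, adjusted p = 0.0188) and Rph3a (1.51, adjusted p = 0.0188). It was negative for Gas7 (-11.03, adjusted p = 0.00126), Sorl1 (-6.25, adjusted p = 1.40e-08), Nxph1 (-5.92, adjusted p = 4.01e-11), Pcdh17 (-5.54, adjusted p = 6.76e-12), Oprm1 (-5.39, adjusted p = 0.00310), Adcyap1r1 (-4.86, adjusted p = 0.00379), Srgap3 (-2.82, adjusted p = 5.49e-06), Fhl1 (-2.76, adjusted p = 0.00152) and Rorb (-1.91, adjusted p = 0.00677). Of the 18 genes with calls in both comparisons, these 13 among them, 5 were still called with same-date libraries only, 8 in edgeR's newer fit and 12 with the date as a block. The amplification date of LGd was that of 7 of 9 LP libraries, and that of VB was that of 3 of 7 PO libraries.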

How the results depend on the processing

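Of 48 genes called between LGd and VB (19 higher in LGd, 29 lower), RLE factors gave 48, upper-quartile factors 51, no low-count filter 49 and a mean of at least 1 CPM in a compared group 50, with all 48 called each time. Chosen after the data were seen, edgeR's newer fit gave 44 (20 of them among the 48) and limma-voom 48 (21 among the 48). DESeq2 called 179 (81 higher, 98 lower) and the 2 groups alone 19 (5 higher, 14 lower, over 12112 genes). A replicate block, in a fit of the 2 groups alone, gave 11 (4 higher, 7 lower), but same-numbered libraries did not deviate together (r = -0.0621 to 0.0338 over 4 pairs), so the numbers pair nothing. The amplification date as a block gave 11 (5 higher, 6 lower). The cause of these changes was not tested. Leaving out 1 library gave 34 to 67 calls, with 10 to 37 higher in LGd (37 without VB replicate 1, 10 without VB replicate 2, 11 without VB replicate 4 and 12 without LGd replicate 2) and 18 to 30 lower (18 without LGd replicate 5 and 19 without LGd replicate 1). No called gene with a value under these settings changed direction, but 14 had no value in the fits of the 2 groups alone and 4 had no adjusted p from DESeq2.

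The difference of the contrasts, 33 genes, was 165 with DESeq2, 16 with the date as a block, 6 with same-date libraries only and 23 to 40 without 1 library. The comparison of LGd and VB with LP and PO, 1274 genes, was 894 to 1619 under every setting tried and 1021 to 1195 without 1 library. LP against PO, 58 genes, was 38 with those groups alone.

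Among the uncalled markers between LGd and VB, the log2 difference changed sign with the date as a block for Scnn1a (-7.82), Tnnt1 (-1.60), Slc17a6 (-0.20), Slco2a1 (0.084) and Tcf7l2 (-0.67). Without 1 library the log2 difference ran from -0.11 to 0.34 for Tnnt1, from -0.0022 to 0.17 for Slc17a6 and from -0.29 to 0.24 for Rora, with a change of sign for Tnnt1 without LGd replicate 5 (-0.014) and without VB replicate 2, for Slc17a6 without VB replicate 4 and for Rora without VB replicate 2. With 4 and 5 libraries of 14 to 65 cells, genes of a few CPM were read in some libraries of a group and not in others, which limits what can be said of them.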

Other observations

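Further members of the gene lists differed between the relays by value without passing edgeR's test, and were chosen for mention after their values were seen. Gria1, an AMPA receptor subunit, averaged 130 ± 24.7 CPM in LGd and 33.2 ± 21.1 CPM in VB (adjusted p = 0.0591), and every LGd library was above every VB library. Kcnj6, an inwardly rectifying potassium channel gated by G proteins, averaged 78.0 ± 17.6 CPM in LGd and 27.1 ± 9.17 CPM in VB (adjusted p = 0.183). Cacna2d2, an auxiliary calcium channel subunit, averaged 41.8 ± 13.2 CPM in LGd and 14.3 ± 6.21 CPM in VB (adjusted p = 0.134). Col25a1, a transmembrane collagen, averaged 303 ± 35.3 CPM in LGd and 147 ± 15.3 CPM in VB (adjusted p = 0.518), against 52.7 CPM in LP and 40.0 CPM in PO. In the other direction, Cntn4, a contactin, averaged 150 ± 13.4 CPM in LGd and 286 ± 38.2 CPM in VB (adjusted p = 0.398), and Kcnab3, a potassium channel beta subunit, averaged 103 ± 38.2 CPM in LGd and 237 ± 73.7 CPM in VB (adjusted p = 0.827), against 19.7 CPM in LP and 24.5 CPM in PO.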
